A study of Mus musculus with 6 samples.

Results

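The cytosolic ribosomal protein genes are the genes for the protein parts of the ribosome that works in the cytoplasm. They were chosen by name from the 34685 genes of the normalized table. A member carried a symbol of Rpl or Rps followed by digits and at most one of the letters a, x or l, or was Rplp0, Rplp1, Rplp2 or Rpsa, and pseudogene symbols and the S6 kinases were left out. The rule used no measured value and gave 82 genes, of which 78 passed the filter on low counts. The 4 that did not were Rpl32l, Rpl6l, Rpl39l and Rpl3l, with at most 20 reads in any library.

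The 6 bulk RNA-seq libraries came from tumors of HCA-1 cells, a murine line of hepatocellular carcinoma (HCC), grown under the liver capsule of C3H mice (C3H/HeNCrNarl in the methods) that were male and 6 to 8 weeks old. The control group (controls 5, 6 and 7) was untreated, so no carrier-only group was part of the comparison. The treated group (GOX_DOX 1, 2 and 5) received the GOx-DOX-LGP nanoparticle by vein. It carries glucose oxidase, which turns glucose into gluconic acid and hydrogen peroxide, and doxorubicin, which poisons topoisomerase II. The labels give the dosing days as 18, 19 and 20 and put the transcriptome at 3 h of circulation on day 17, which is before the first of those days. For its quantitative PCR of tumors, the paper's Supporting Information gives the same dosing days with harvest after the last dose. Its section on sequencing names no days. All tumors derive from 1 cell line, and each library can also hold liver and other host cells. The labels number the libraries and do not say that each came from a separate mouse, so p-values measure the spread between these libraries only.

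Each ribosome is built from a large subunit, with Rpl proteins, and a small subunit, with Rps proteins, around ribosomal RNA made in the nucleolus. Cells keep the proteins in near-equal numbers. Most of the mRNAs begin with a cytosine and a run of pyrimidines, the terminal oligopyrimidine (TOP) motif, through which mTORC1 and Larp1 control their translation. Ribosomal protein mRNAs are abundant in growing and tumor cells. Several free ribosomal proteins bind Mdm2 when ribosome assembly is disturbed, and thereby stabilize p53.

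The starts of 5 member genes are printed below because they show the motif that the family shares, and because they belong to 3 of the 5 genes with the highest fold changes and to the pair of paralogs that parted. Each stretch runs from 35 bases before to 25 bases after the RefSeq transcript start on GRCm38.p6, and capitals mark each pyrimidine tract, read as a C followed by at least 4 C or T, with the first C between 5 bases before and 20 bases after the start. They are Rpl13a at chr7:45128721-45128780 on the minus strand, Rpl12 at chr2:32961677-32961736 on the plus strand, Rps15a at chr7:118116123-118116182 on the minus strand, Rps27 at chr3:90213624-90213683 on the minus strand and Rps27l at chr9:66946051-66946110 on the plus strand.
Rpl13a: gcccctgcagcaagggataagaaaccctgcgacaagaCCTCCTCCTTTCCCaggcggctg
Rpl12: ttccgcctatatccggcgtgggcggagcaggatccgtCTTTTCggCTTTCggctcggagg
Rps15a: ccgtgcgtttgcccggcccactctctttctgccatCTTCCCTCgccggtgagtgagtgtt
Rps27: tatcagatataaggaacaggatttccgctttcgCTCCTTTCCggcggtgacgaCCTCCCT
Rps27l: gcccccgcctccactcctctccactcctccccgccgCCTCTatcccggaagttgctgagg

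Promoter entries matched 60 of the 82 genes, with 72 starts. The tract lay at 62.5% of these starts and at 33.7% of all 32851 starts in the table, on the strand of the gene. The more specific letters CTTTCC, which can lie inside the tract, were near the start in 12.5% of member starts and in 1.31% of all. In the window from 250 bases before to 50 after the start, on both strands, CCGGAAG, the letters bound by Ets factors, stood in 36.1% of member starts against 8.86% of all, and GGGCGG, the letters bound by Sp1, in 56.9% against 35.7%. AAGATGGC, the letters bound by Yy1, stood in 9.72% against 2.75%. TATAAA in the 50 bases before the start, on the strand of the gene, was found at 0 of the 72 member starts and at 2.63% of all.

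Before any comparison, control 5 stood apart from controls 6 and 7. Over all genes its log2 levels correlated at 0.73 and 0.66 with controls 6 and 7, and at 0.97 to 0.98 with the GOX_DOX libraries (Pearson, across genes, which are not independent). Levels are given as CPM, which are counts scaled to library size, here with the TMM method. The TMM factors were 1.24, 0.76 and 0.57 in controls 5, 6 and 7 and 1.21 to 1.24 after treatment. CPM in controls 6 and 7 are thereby raised relative to their raw shares of counts. Summed levels of 18 hepatocyte markers such as Alb, none of them at 0 in any library, were 753 CPM in control 5, 145800 in control 6 and 247000 in control 7. They were between 1588 and 3888 CPM in the GOX_DOX libraries. The levels of 16 proliferation genes were 1526 CPM in control 5, 465 and 130 CPM in the other two controls, and between 1099 and 1441 CPM after treatment. Summed leukocyte markers (17 genes) ranged from 517 to 1196 CPM in controls and from 1163 to 3021 CPM after treatment, and 1 of the 17 was at 0 in a library. Summed liver cancer markers (10 genes, 6 higher and 4 lower by sign) were at 8106 CPM in control 5, 1346 and 881 CPM in controls 6 and 7, and between 5874 and 8310 CPM after treatment. Spp1 made up most of that sum in control 5 and in the treated libraries, with 6838, 463 and 178 CPM in controls and 4589 to 6936 CPM after treatment, while Afp was between 2.25 and 13.2 CPM in every library. Library totals lay between 15529940 and 18401178 counts, and mitochondrial transcripts took 2.21% of counts in control 5, 7.02% and 8.98% in controls 6 and 7, and 2.63% to 3.23% after treatment.

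Ribosomal protein transcripts made up a larger share of the libraries of GOX_DOX tumors, and the 2 controls rich in hepatocyte markers held the smallest shares. The 82 genes took 5.002% of counts in control 5, 1.95% in control 6 and 1.45% in control 7. They took 5.66%, 5.33% and 7.25% in GOX_DOX 1, 2 and 5. All 3 treated libraries were above all controls, with control 5 just under GOX_DOX 2. The means were 2.80% ± 1.92 and 6.08% ± 1.03 (SD, n = 3 each), and the widest 95% Wilson interval of a single share, that of GOX_DOX 5, ran from 7.24% to 7.26%, which covers counting error only. Without control 5 the control mean was 1.70%. In bulk tumor, fewer cells of a type and less of an RNA per cell cannot be told apart, and the part that hepatocytes in controls 6 and 7 have in this share was not tested.

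**Figure D1:**
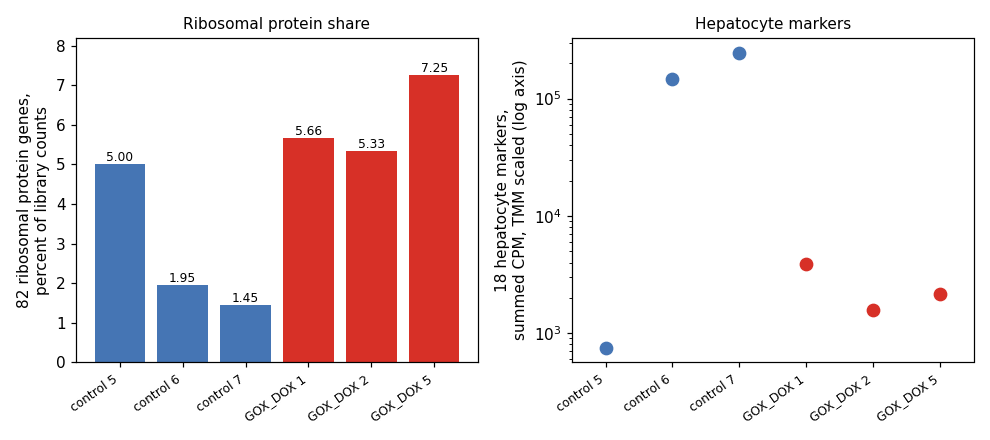
Left, the percent of each library's counts in the 82 ribosomal protein genes, one bar per library (blue, control; red, GOX_DOX). Right, the summed TMM-scaled CPM of 18 hepatocyte markers on a log axis; controls 6 and 7 have the lowest share (1.95% and 1.45%) and the highest marker sums, and control 5 lies near the treated libraries in both.

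The share was higher after treatment for both subunits. Large subunit genes took 1.69% ± 1.15 of counts in controls and 3.62% ± 0.539 after treatment, and small subunit genes took 1.11% ± 0.776 and 2.46% ± 0.488 (SD, n = 3 each). The ratio of large to small subunit counts was 1.51, 1.55 and 1.58 in the controls and 1.501, 1.54 and 1.41 after treatment. The ratio was lowest in GOX_DOX 5, and the other treated libraries were within or just under the range of the controls.

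Nearly the whole family had higher levels after treatment by a similar factor, although no single gene passed the test. In the edgeR quasi-likelihood fit over 15374 genes, 75 of 78 members had a positive log2 fold change, against 51.1% of all genes. Their median was 0.71, or 1.63-fold, with quartiles of 0.58 and 0.79, while the median of all genes was 0.02. The groups did not overlap for 56 of the 78, all of them higher after treatment, against 8.87% of all genes, and 0 were lower, against 8.31%. Adjusted p was under 0.05 for 0 of 78 members and for 0% of all genes, with member values from 0.247 to 0.976 (edgeR, Benjamini-Hochberg). At an unadjusted p under 0.05, 6 members were higher and 1 lower, where all genes gave 2.87% higher and 14.6% lower. The 6 were Rpl39, Rpl38, Rpl36a, Rps28, Rps21 and Rps27, and the lower gene was Rps4l, a set of names that was chosen after values had been seen. DESeq2 called 4 of 79 members, all higher (Rpl39, Rps4x, Rpl36a and Rpl26, adjusted p 0.0309, 0.0273, 0.0202 and 0.0426), beside 0.684% of all genes called higher and 9.85% called lower.

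**Figure D2:**
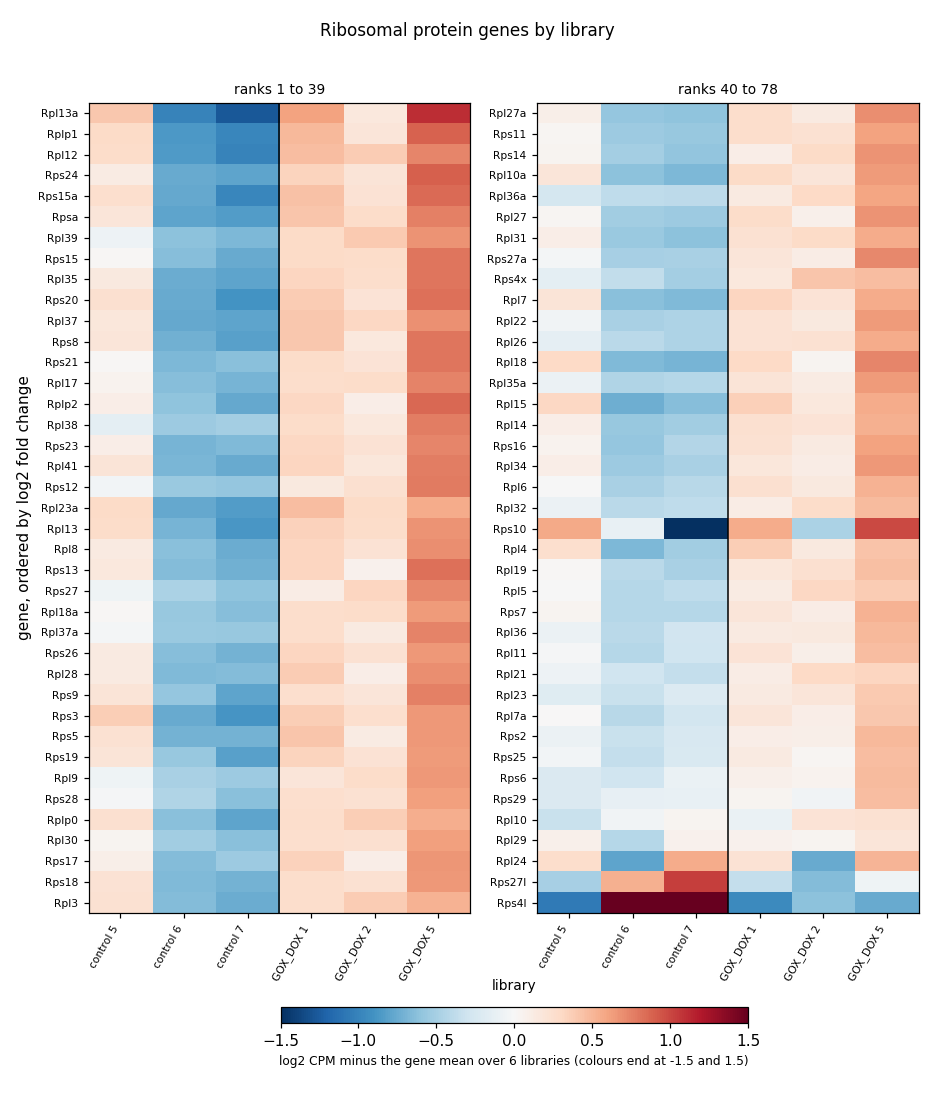
Log2 CPM of each of the 78 ribosomal protein genes in each library minus the gene's mean over the 6 libraries, with genes ordered by fold change and a line between control and GOX_DOX libraries. Controls 6 and 7 are low (blue) for most genes, GOX_DOX 5 is the highest library for 75 of 78, and Rps27l and Rps4l at the bottom right run the other way.

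The order of the libraries repeated from gene to gene. Controls 6 and 7 were both below every treated library for 72 of the 78 members, and both below control 5 for 72. Control 5 was below every treated library for 58 members, within the treated range for 20 and above it for 0. GOX_DOX 5 was the highest library for 75 members. Without control 5, edgeR called 64 of 79 members higher and 2 lower at an adjusted p under 0.05, which is 66 members beside 47.7% of all genes called, 22.2% higher and 25.5% lower. The median log2 fold change of members was then 1.00, and that of all genes 0.08. The groups did not overlap for 73 members that were higher and 2 that were lower, beside 36.8% and 35.3% of all genes. Leaving out control 5 removes the control that resembles the treated libraries, and controls 6 and 7 are the libraries rich in hepatocyte markers, so in that comparison treatment and hepatocyte content cannot be told apart.

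**Figure D3:**
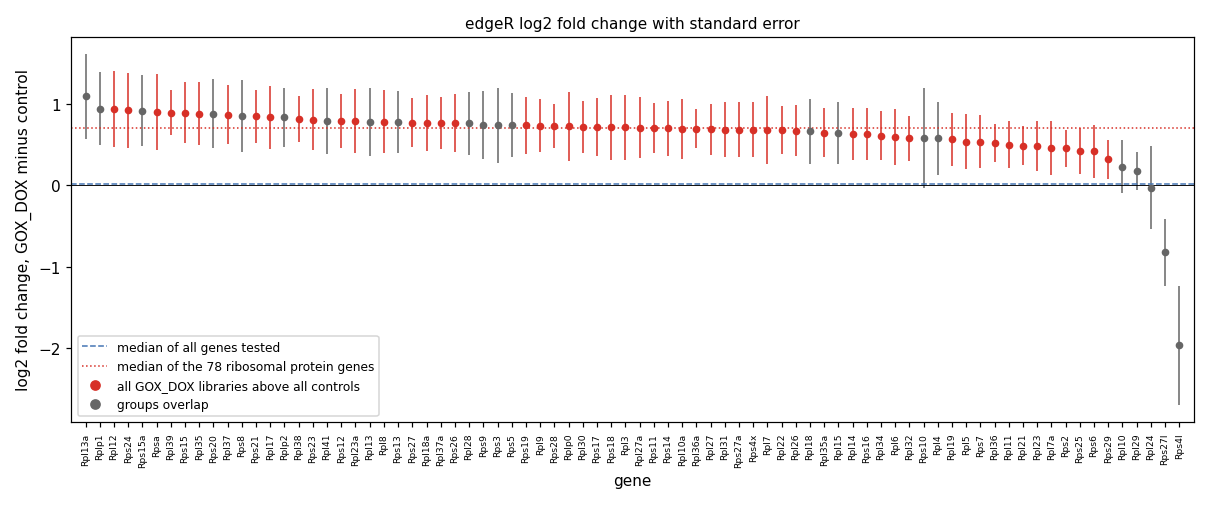
Log2 fold change (GOX_DOX minus control) of the 78 genes from edgeR over 6 libraries, with bars of 1 standard error; red points are the 56 genes whose 3 treated libraries all lie above all 3 controls. The points lie along a line near the median of 0.71, and Rps27l and Rps4l lie below 0.

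The stalk proteins, which recruit translation factors to the large subunit, had log2 fold changes from 0.72 to 0.94, next to the family median of 0.71 for Rplp0 and among the 5 highest for Rplp1. Rplp0, the base of the stalk, was at 1127, 619 and 552 CPM in controls 5, 6 and 7 and at 1154, 1239 and 1400 CPM in GOX_DOX 1, 2 and 5. Its log2 fold change was 0.72 (SE 0.423, edgeR adjusted p = 0.392). The treated libraries were all above the controls, but control 5 was close to GOX_DOX 1. Rplp1, one of the acidic stalk proteins, was at 367, 165 and 153 CPM in controls and at 419, 340 and 555 CPM after treatment, a log2 fold change of 0.94 (SE 0.449, edgeR adjusted p = 0.332). Rplp2, its partner, was at 206, 127 and 113 CPM and then at 238, 206 and 351 CPM, with a log2 fold change of 0.83. For both acidic proteins control 5 lay above GOX_DOX 2, so the groups overlapped. Rpl12, which sits beside the stalk, was at 977, 448 and 401 CPM in controls and at 1111, 1047 and 1344 CPM after treatment, with a log2 fold change of 0.94 and no overlap.

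Rpl13a, a large subunit protein that also takes part in a complex that silences inflammatory mRNAs, had the highest log2 fold change of the family, 1.09 (SE 0.518, edgeR adjusted p = 0.330). It was at 58.1, 21.8 and 18.1 CPM in the controls and at 66.4, 48.9 and 94.0 CPM after treatment. Control 5 lay within the treated range. Per kilobase of coding sequence its level of 83.7 CPM was far under the family median of 1048, and 97.5% of its stretches of 50 coding bases also occur in another gene, so that its count is uncertain.

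On the small subunit, Rps15a and Rps24 led. Rps24, one of the genes mutated in Diamond-Blackfan anemia, was at 1259, 682 and 666 CPM in controls and at 1461, 1319 and 2151 CPM after treatment, with a log2 fold change of 0.92 (SE 0.462, edgeR adjusted p = 0.347). Its treated libraries were all above its controls. Rps15a, a core protein of the subunit, was at 445, 218 and 189 CPM and then at 506, 431 and 670 CPM, with a log2 fold change of 0.92 and overlapping groups. Rps19, the gene most often mutated in that anemia, was at 258, 153 and 129 CPM in controls and at 285, 262 and 351 CPM after treatment, a log2 fold change of 0.74. Its groups did not overlap, though control 5 came near GOX_DOX 2.

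Rpsa, which is also known as the laminin receptor, was at 1486, 757 and 734 CPM in controls and at 1748, 1581 and 2208 CPM after treatment, a log2 fold change of 0.90 with no overlap. Rps3, a protein at the mRNA entry site that also acts in DNA repair, was at 970, 441 and 406 CPM and then at 967, 888 and 1175 CPM, so that control 5 lay inside the treated range. Rps14, the gene lost in the 5q- syndrome, was at 507, 348 and 327 CPM in controls and at 531, 602 and 785 CPM after treatment. Rps14 had a log2 fold change of 0.70 and no overlap. Rps27a, which is made as a fusion to ubiquitin, was at 529, 385 and 388 CPM and at 616, 584 and 893 CPM, with a log2 fold change of 0.69 and no overlap.

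Rpl39, a small protein that lines the exit tunnel, gave the smallest unadjusted p of the family in edgeR. It was at 167, 116 and 110 CPM in controls 5, 6 and 7 and at 216, 232 and 282 CPM after treatment. All treated libraries were clear of all controls, control 5 included. The log2 fold change was 0.89 (SE 0.277, edgeR adjusted p = 0.247). Rpl36a, another large subunit protein, was at 178, 165 and 163 CPM and then at 235, 263 and 321 CPM, with a log2 fold change of 0.70 (SE 0.244, edgeR adjusted p = 0.247). Its controls lay within a narrow range, so control 5 differed little from controls 6 and 7 here. Rps4x, the X-linked form of a small subunit protein, was at 828, 706 and 640 CPM in controls and at 1016, 1217 and 1257 CPM after treatment, a log2 fold change of 0.68. Rpl26, which also binds p53 mRNA, was at 568, 470 and 455 CPM and then at 724, 735 and 922 CPM, a log2 fold change of 0.67.

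Rpl5, Rpl11 and Rpl23, chosen by role because they bind Mdm2, each had a fold change under the family median, and other ribosomal proteins that bind Mdm2 were not collected as a list. Rpl5, which carries 5S RNA into the subunit, was at 924, 693 and 717 CPM in controls and at 1010, 1156 and 1215 CPM after treatment, with a log2 fold change of 0.54 (SE 0.340, edgeR adjusted p = 0.423). Rpl11, its partner on 5S RNA, was at 407, 306 and 335 CPM and then at 476, 437 and 566 CPM, a log2 fold change of 0.50. Rpl23, at 625, 559 and 612 CPM and then at 777, 803 and 928 CPM, had a log2 fold change of 0.48. For all 3 genes the treated libraries lay above all controls, and none passed the edgeR test. Mdm2 itself was at 688, 80.2 and 68.0 CPM in controls and at 368, 248 and 327 CPM after treatment, with control 5 above every treated library.

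Rps6, the substrate of the S6 kinases below mTORC1, was at 695, 655 and 753 CPM in controls and at 852, 837 and 1115 CPM after treatment. Its controls had nearly the same level, and its log2 fold change was 0.42 (SE 0.326, edgeR adjusted p = 0.498). Without control 5 the value was 0.44 (edgeR adjusted p = 0.211). Rpl10, one of the last proteins to join the large subunit, was at 658, 796 and 854 CPM in controls and at 776, 957 and 973 CPM after treatment, with a log2 fold change of 0.23. In contrast to most of the family, control 5 was the lowest library for Rpl10, and the groups overlapped. Rpl22, which also binds viral and cellular RNA, was at 296, 220 and 222 CPM and at 358, 341 and 480 CPM, a log2 fold change of 0.68. Rpl3, at the peptidyl transferase center, was at 824, 445 and 418 CPM and at 843, 914 and 1002 CPM, a log2 fold change of 0.71. Rpl22 and Rpl3 had no overlap between groups.

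Rpl4 and Rpl7 belong to the 5 members with the most reads per gene, together with Rpsa, Rps24 and Rplp0, without correction for length. Rpl4, which lines the exit tunnel, was at 1878, 993 and 1102 CPM in controls and at 2038, 1753 and 2135 CPM after treatment, so that the groups overlapped (log2 fold change 0.58). Rpl7, another large subunit protein, was at 1267, 722 and 704 CPM and at 1395, 1283 and 1640 CPM, with a log2 fold change of 0.68 and no overlap. Per kilobase of coding sequence the highest level was that of Rpl41, 7676 CPM, whose coding sequence has only 78 bases.

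A few members had levels far under the rest. Rpl24, a large subunit protein, stood at 1.58, 0.763 and 1.94 CPM in controls and at 1.53, 0.784 and 1.87 CPM after treatment. Its level of 2.98 CPM per kilobase of coding sequence was the lowest of the 78 genes that passed the filter, and 99.3% of its stretches of 50 coding bases also occur in another gene. Its fitted log2 fold change was -0.03 under TMM scaling and 0.50 under scaling by library totals, which moves the median of all genes by a similar amount. Rpl29 had 10.3 to 14.5 CPM in controls and 14.2 to 15.7 CPM after treatment, and Rps10 had 1.29 to 5.44 CPM and 2.65 to 7.28 CPM. Of their 50-base stretches, 90.3% and 92.4% occur elsewhere. Across the 78 members the median shared fraction was 92%, and 66 shared at least 50%. Ribosomal protein genes have many processed copies in the genome, and how reads with several matches were counted is not given in the sources used here. The shared fraction and the fold change had a Spearman correlation of -0.08 across the 78 genes, as a description. Between the shared fraction and the level per kilobase of coding sequence it was 0.08. The median level was 1059 CPM per kilobase for the 66 members sharing at least 50%, and 830.5 for the 4 sharing under 20%. Why Rpl24, Rpl29 and Rps10 had low levels was not tested.

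Rps27l and Rps4l, symbols that mark paralogs, ran against the family. Rps27l, a near-copy of Rps27 that p53 is known to induce, was at 60.3, 124 and 175 CPM in controls 5, 6 and 7 and at 66.7, 54.1 and 81.3 CPM after treatment. Controls 6 and 7 were above every treated library, while control 5 lay among the treated ones. The log2 fold change was -0.83 (SE 0.417, edgeR adjusted p = 0.347). Without control 5 it was -1.12 (SE 0.239, edgeR adjusted p = 0.00812). Rps27 itself was at 278, 210 and 191 CPM in controls and at 315, 363 and 480 CPM after treatment, with a log2 fold change of 0.77 (SE 0.307, edgeR adjusted p = 0.275) and no overlap.

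Counts of Rps27l were 21.7%, 59.0% and 91.4% of those of Rps27 in controls 5, 6 and 7, and 21.2%, 14.9% and 16.9% in GOX_DOX 1, 2 and 5. The proportion was high in the 2 controls rich in hepatocyte markers, and control 5 was just above the treated range. Whether hepatocytes carry the higher proportion was not tested. The coding sequences of the pair are printed because they show where the genes differ. Both have 255 bases, of which 61 differ (76.1% identical), and they share 0 stretches of 50 bases. Capitals mark the differing bases, in the reference of GENCODE M21 on GRCm38, read from Rps27 (gene at chr3:90212522-90213651, minus strand) and Rps27l (gene at chr9:66946086-66949516, plus strand).
Rps27: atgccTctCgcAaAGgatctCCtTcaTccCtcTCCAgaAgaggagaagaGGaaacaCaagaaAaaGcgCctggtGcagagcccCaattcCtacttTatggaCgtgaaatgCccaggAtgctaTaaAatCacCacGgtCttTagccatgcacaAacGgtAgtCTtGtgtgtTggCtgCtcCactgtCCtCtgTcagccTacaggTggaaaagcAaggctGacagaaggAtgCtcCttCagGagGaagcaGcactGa
Rps27l: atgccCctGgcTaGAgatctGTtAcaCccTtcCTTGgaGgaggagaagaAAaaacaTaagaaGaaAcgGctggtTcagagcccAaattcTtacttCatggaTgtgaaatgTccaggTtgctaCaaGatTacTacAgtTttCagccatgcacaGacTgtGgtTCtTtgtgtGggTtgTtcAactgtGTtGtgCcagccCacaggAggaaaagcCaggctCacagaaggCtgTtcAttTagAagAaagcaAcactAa

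Rps4l is listed in GENCODE M21 as a transcribed processed pseudogene whose gene span overlaps that of Tmtc1 on the other strand. Whether their exons overlap was not examined, and without a known strand setting reads in such an overlap could not be told apart. Rps4l was at 1.01, 6.28 and 7.43 CPM in controls and at 1.09, 1.37 and 1.25 CPM after treatment, from 22 to 74 reads per library. Controls 6 and 7 were high and control 5 was below every treated library. The log2 fold change was -1.97 (SE 0.730, edgeR adjusted p = 0.257), and -2.43 without control 5 (edgeR adjusted p = 0.00115). Its counts were 0.122%, 0.889% and 1.16% of those of Rps4x in controls and between 0.0993% and 0.113% after treatment. Rpl22l1, the paralog of Rpl22, stood at 10.5%, 12.4% and 13.3% of Rpl22 in controls and between 9.01% and 10.9% after treatment. Here too controls 6 and 7 were above every treated library, by a smaller factor, and control 5 lay within the treated range.

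**Figure D4:**
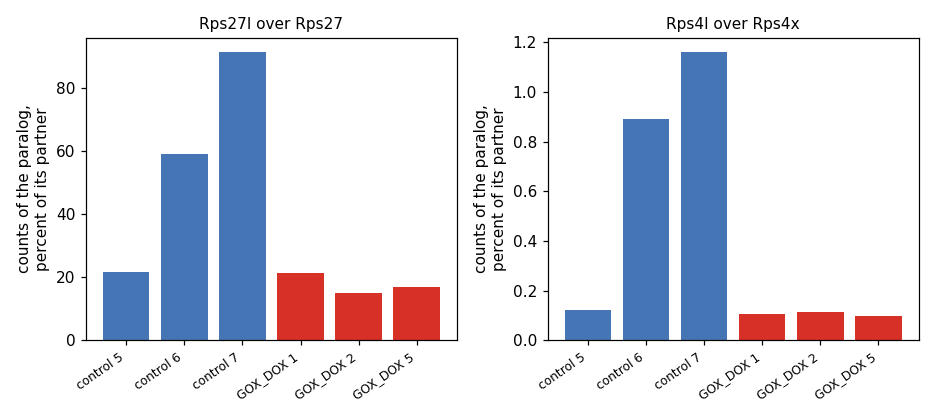
Counts of Rps27l as a percent of Rps27 (left) and of Rps4l as a percent of Rps4x (right), one bar per library (blue, control; red, GOX_DOX). Controls 6 and 7 stand out with 59.0% and 91.4%, and 0.889% and 1.16%, while control 5 is close to the treated libraries.

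Of the symbols that failed the filter, Rpl39l had 4 reads in control 5, 1 read in GOX_DOX 5 and 0 in the other libraries, where 3 reads would be 0.147 to 0.323 CPM. Rpl3l, the muscle form of Rpl3, had 0 to 3 reads per library. Rpl32l and Rpl6l, which are annotated as processed pseudogenes, had 1 to 5 and 3 to 20 reads. No fold is given for these 4 genes.

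Each library was also scaled to the summed counts of the 82 genes, which by construction puts the center of the family near 0. This scale shows only how members differ from each other, and most lay near that center. The median log2 fold change of members was then 0.02, with quartiles of -0.10 and 0.11, and that of all genes was -0.69. No member had an adjusted p under 0.05 (edgeR, beside 0% of all genes), and at an unadjusted p under 0.05 0 were higher and 2 lower, Rps4l and Rps27l, with all genes at 0.41% and 38.7%. Rps27l had a log2 fold change of -1.69 on this scale (edgeR adjusted p = 0.0962) and Rpl13a the highest, 0.48 (edgeR adjusted p = 0.346). As a percent of the family sum, Rpl39 took 0.413% to 0.449% in controls and 0.472% to 0.528% after treatment, and Rps7 took 1.60% to 1.82% and 1.53% to 1.55%. These are examples of 5 of the 78 members that were above and 5 that were below without overlap, where 1.24% of all genes were above and 33.6% below on this scale.

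Members with and without the tract had similar fold changes, as a description. The median log2 fold change was 0.72 for 39 members with the tract at a start, 0.69 for 18 with a promoter entry and no tract, and 0.71 for 21 without an entry. Rpl genes had a median of 0.69 with 45 of 46 higher by sign, and Rps genes had 0.73 with 30 of 32.

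Other genes of the same pathway were compared as lists. None of their genes had an adjusted p under 0.05 in the fit over 6 libraries (edgeR, 0% of all genes), and directions are therefore by sign. Of all genes, 51.1% were higher by sign. At an unadjusted p under 0.05, 2.87% of all genes were higher and 14.6% lower (edgeR). Among 25 translation factors and other TOP mRNA genes, 24 were higher, with a median log2 fold change of 0.55 and 1 higher at an unadjusted p under 0.05. Vim, an intermediate filament gene with a TOP mRNA, was the highest at 1.56, and Eif4a2, a helicase of initiation, the lowest at -0.09. The summed level of this list was 36740, 20010 and 19640 CPM in controls 5, 6 and 7, and 37620 to 43500 CPM after treatment. Among 54 ribosome biogenesis factors, 45 were higher, with a median of 0.31 and 0 genes at an unadjusted p under 0.05. The snoRNP proteins Nop56 and Nop58 led with 0.85 and 0.81, and Pno1, which acts in small subunit maturation, was lowest at -0.34. For Nop56 and Nop58 control 5 lay within the treated range. Of 15 genes of the RNA polymerase I machinery, which makes ribosomal RNA, 13 were higher, with a median of 0.29 and 1 at an unadjusted p under 0.05. Summed biogenesis factors were at 4174, 2392 and 2445 CPM in controls 5, 6 and 7 and at 3291 to 4359 CPM after treatment. Summed polymerase genes were at 694.2, 478.7 and 462.9 CPM and at 607.5 to 739.7 CPM, so control 5 lay within both treated ranges. In list order, groups did not overlap for 8, 4 and 2 genes that were higher and 0, 1 and 0 that were lower. Of all genes, 8.87% and 8.31% did so. In the fit that left out control 5, edgeR called 17 of the 25, 25 of the 54 and 6 of the 15 genes higher and 0 lower, with all genes at the 22.2% and 25.5% given above.

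Most genes of the regulator list and of the mitochondrial family were lower by sign. Among 29 genes of mTORC1 and Myc control, 11 were higher and 18 lower, with a median log2 fold change of -0.23. The list mixes genes that promote and genes that restrain ribosome synthesis, so these counts give no direction of control. Myc, which drives ribosomal protein transcription, was at 158, 21.5 and 7.43 CPM in controls and at 165, 100 and 141 CPM after treatment. Control 5 lay within the treated range. The log2 fold change of Myc was 1.12, the highest of the list (SE 1.046, edgeR adjusted p = 0.557). Eif4ebp2, a translation repressor that mTORC1 switches off, was at 125, 362 and 485 CPM and then at 117, 110 and 114 CPM, a log2 fold change of -1.51 (SE 0.506, edgeR adjusted p = 0.247). Its treated libraries were all below the controls.

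Of 77 mitochondrial ribosomal proteins, which serve the separate ribosomes of mitochondria, 9 were higher and 68 lower by sign, with pseudogene symbols left out, with a median log2 fold change of -0.42 beside 0.71 for the cytosolic family. At an unadjusted p under 0.05, 0 were higher and 2 lower, beside 2.87% and 14.6% of all genes (edgeR). Their summed level was 1687 CPM in control 5, 2548 CPM in control 6 and 3343 CPM in control 7, compared with 1839, 1661 and 2147 CPM after treatment. Control 5 lay within the treated range, and controls 6 and 7, the libraries with the highest share of mitochondrial transcripts, lay above it. Without control 5, edgeR called 1 higher and 37 lower at an adjusted p under 0.05, beside 22.2% and 25.5% of all genes. The difference between these families was not tested.

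**Figure D5:**
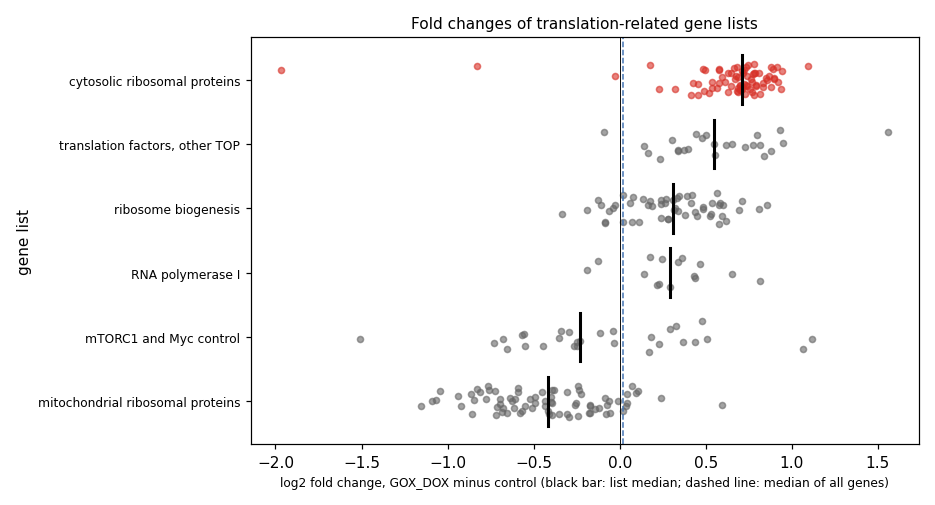
Log2 fold change (GOX_DOX minus control) of each gene of 6 lists, with a black bar at the list median and a dashed line at the median of all genes. The medians run from 0.71 for the cytosolic ribosomal proteins through 0.55, 0.31 and 0.29 to -0.23 and -0.42 for the mitochondrial ones.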

How the data were processed

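The tumor RNA was prepared with the KAPA mRNA HyperPrep kit. The authors deposited raw counts per gene for 55536 genes and, as a signal per gene, the same counts after scaling with 1 factor per library. The ratio of both tables varied within a library by at most 9.61e-08%. The Supporting Information names TopHat and HTSeq, whereas the submitters' processing notes list Trimmomatic 0.38, HISAT2 2.1.0 and featureCounts 2.0.0. The genome build, annotation release and strand setting are not given in the sources used here, and reads with several matches may have been lost or shared, which affects genes with near-identical copies. Of the 82 members, 22 overlap a gene on the other strand, among them Rpl12, Rpl3, Rps14, Rps27a and Rps10. These overlaps are of whole gene spans, introns included, and whether exons overlap was not examined. Where exons do overlap, reads cannot be assigned to 1 gene with certainty without the strand setting. No library pair had identical counts.

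Tests used the raw counts in edgeR 4.0.16, DESeq2 1.42.0 and limma 3.58.1 under R 4.3.3. After filterByExpr (default settings) and TMM scaling, edgeR's quasi-likelihood test was fitted over 6 libraries without covariates, with Benjamini-Hochberg adjustment over 15374 genes and a threshold of 0.05. The prior count for log2 CPM was 2, intervals are 95% Wilson intervals and the floor was 3 counts, both for counting error only. The steps were tested on simulated data. Alternatives were other scalings, no filter, DESeq2, limma voom with quality weights, a hepatocyte covariate and leaving out each library.

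Members and lists were chosen with earlier results of these data known. Named members are the 5 with the most reads, the 5 with the highest and 5 with the lowest fold change on each scale, genes fixed by role, paralogs and their partners, and those that DESeq2 called, and for the other lists the highest and lowest. Eif4ebp2, Mdm2 and Rps10, the promoter starts shown, the tract, leaving pseudogene symbols out of the mitochondrial list, the paralog proportions, the shared stretches and the position of control 5 were chosen after values had been seen. Gene positions and coding sequences came from GENCODE M21 (GRCm38, 82 of 82 identifiers matched) and promoters from RefSeq (GRCm38.p6).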

Additional observations from a re-analysis of the deposited data

How the results depend on the processing

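The median log2 fold change of the family stayed positive under every alternative run, between 0.45 with the hepatocyte score as a covariate and 1.13 with scaling by library totals, where the median of all genes was 0.51. The calls depended on control 5 and on the model. Leaving out 1 library at a time gave 0 to 66 members with an adjusted p under 0.05, beside 0% to 47.7% of all genes (edgeR). At an unadjusted p under 0.05 it gave 0 to 70 members (edgeR), and 66 and 70 were reached without control 5. The same step gave a median of 0.58 to 1.00, 55 to 75 members without overlap, 0 to 6 members that differed on the scale of the family sum, and a difference in share of counts of 2.61 to 4.38 percentage points. DESeq2 gave 4 members with an adjusted and 48 with an unadjusted p under 0.05, beside 1739 and 3991 of all genes, and limma voom with quality weights, which set libraries at unequal weight, gave 74 and 74, beside 60.2% and 64.9% of all genes. The unadjusted count in edgeR, taken in either direction, was 7 (17.5% of all genes). It became 3 when scaled by library totals (10.8%), 15 by the upper quartile (16%) and 2 by housekeeping genes (22.6%). TMM factors estimated without the members gave 11 (17.3%). Directions pooled, among these edgeR scalings over 6 libraries the share of members lay under that of all genes except by the upper quartile. Without control 5 it lay above, at 83.5% against 47.7% (edgeR, adjusted p under 0.05). By direction, the fit over 6 libraries called 7.69% of members higher against 2.87% of all genes. It called 1.28% of members lower against 14.6% of all genes (edgeR, unadjusted p under 0.05). With housekeeping scaling the groups did not overlap for 19 members, all higher, beside 3.88% of all genes higher and 3296 genes in either direction. Leave-one-out values of Rpl24 ran from -0.33 (without control 6) to 0.27. Rpl24, at -0.03 on the log2 scale, turned positive with library totals (0.50), the upper quartile (0.16), voom (0.70) and no filter (0.034), and without control 5 (0.10), control 7 (0.22) or GOX_DOX 2 (0.27). The cause of these changes was not tested. No paired analysis was possible because the groups share only 1 replicate number. With 3 libraries a group, of which control 5 differs from the other controls, a single gene's change under the spread of the controls could not be detected.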

Other observations

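Ribosomal proteins whose symbols the rule did not take in moved with the family by sign. Of 6 tested, 5 were higher, with a median log2 fold change of 0.54. None was called at an unadjusted or adjusted p under 0.05, beside 17.5% and 0% of all genes (edgeR). Rack1, a scaffold on the small subunit, was at 940, 434 and 399 CPM in controls 5, 6 and 7 and at 967, 970 and 1181 CPM after treatment. Fau, which is made as a fusion to a ubiquitin-like protein, was at 248, 201 and 221 CPM and then at 297, 327 and 446 CPM. Both had no overlap between groups, and Rack1 in control 5 was close to GOX_DOX 1. Rpl7l1, a nucleolar relative of Rpl7, was the lowest of these genes with a log2 fold change of -0.21.

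Pseudogenes of ribosomal proteins carried reads in a near-constant proportion to the family, between 1.94% and 2.12% of its counts in every library. Of 206 such symbols, 70 passed the filter, 66 of them with a positive log2 fold change, and their median was 0.82. At an unadjusted p under 0.05, 22 were higher and 0 lower, beside 2.87% and 14.6% of all genes (edgeR). The adjusted count was 0, beside 0% of all genes. Rps2-ps10 had the highest level, at 395, 249 and 285 CPM in controls and at 442, 415 and 523 CPM after treatment. Reads that belong to the parent genes and reads from the pseudogenes were not told apart.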
